A study of Mus musculus with 6 samples.

Results

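Fibroblast growth factors (FGFs) and their receptors were examined across 6 mouse lung tumour lines. The genes are 4 receptors (Fgfr1, Fgfr2, Fgfr3 and Fgfr4) and 6 ligands (Fgf1, Fgf2, Fgf7, Fgf9, Fgf10 and Fgf13), chosen by gene symbol and not by their level. Together they have 21 of the 41174 non-control probes on the array, 10 for the receptors and 11 for the ligands, and they are 10 of 18745 genes that a probe could be matched to.

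FGFs are small proteins that bind receptor tyrosine kinases on the cell surface together with heparan sulfate chains. An active receptor phosphorylates the adaptor FRS2 and drives the RAS and MAP kinase cascade, which induces ETS transcription factors and feedback inhibitors of the Sprouty, SPRED and DUSP families. In the developing lung, mesenchymal cells make FGF7 and FGF10, which act on the epithelium through a splice form of FGFR2, while FGF9 comes from epithelium and mesothelium and acts on the mesenchyme. FGF13 belongs to the FGF homologous factors, which stay inside the cell, do not activate the receptors in the classical way and bind voltage-gated sodium channels.

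The lines were grown from lung tumours of C57BL/6J mice that carry Rb1L/L and Trp53L/L alleles, a mouse model of small cell lung carcinoma, and both groups share these alleles. The labels name no recombinase or other agent, do not spell out the abbreviation SMC and do not give the age of the mice. They sort the lines into 3 pairs, each of 1 line called non-SMC and 1 called SMC. Pairs 1 and 3 (R716T2 and R1611) are from females and pair 2 (R1563) from a male. Each line had 1 array, so each group has n = 3, and a p-value measures the spread between 3 pairs of primary cultures. Nothing in the labels says how the lines of a pair were separated. Values are log2 signals of a probe relative to the 75th percentile of its array, differences are SMC minus non-SMC, and "detected" means well above background. Levels of different probes are not compared, because probes differ in how brightly they hybridise.

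Between 26370 and 28164 probes were detected per array, and 26683 probes were tested. With the pair in the model, 3.41% of these passed limma's test (adjusted p below 0.05): 54 probes, or 0.202%, with higher and 855, or 3.2%, with lower signal in SMC. Median scaling instead gave 478 and 1382. The lines of the groups did not overlap for 38.6% of tested probes (22.6% higher and 16% lower in SMC). The main Rb1 probe lay between -2.09 and -0.38 in non-SMC and between 0.27 and 0.63 in SMC lines, and the main Trp53 probe between -0.36 and 0.14 on all arrays. The positions of these probes in the genes were not used here, and their signals say nothing of the alleles. All 12 neuroendocrine markers examined, such as Chga, were detected in the 3 SMC lines and in non-SMC replicate 2, against 9 and 11 in non-SMC replicates 1 and 3. The summed signal of these markers, in multiples of each array's 75th percentile, was 256 to 367 in SMC and 20.8 to 147 in non-SMC lines. That of 11 fibroblast and mesenchymal markers was 0.565 to 2.58 in SMC and 293 to 730 in non-SMC lines. Of 6 endothelial markers, Pecam1, Cdh5, Tie1 and Emcn were detected on no array. Leukocyte markers were detected for 8 of 8 genes on the array in non-SMC replicate 3 and for 4 to 6 in the other lines. A single slide held 4 of the arrays, those of non-SMC replicates 2 and 3 and of SMC replicates 1 and 2, and the remaining 2 arrays came from separate slides.

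**Figure D1:**
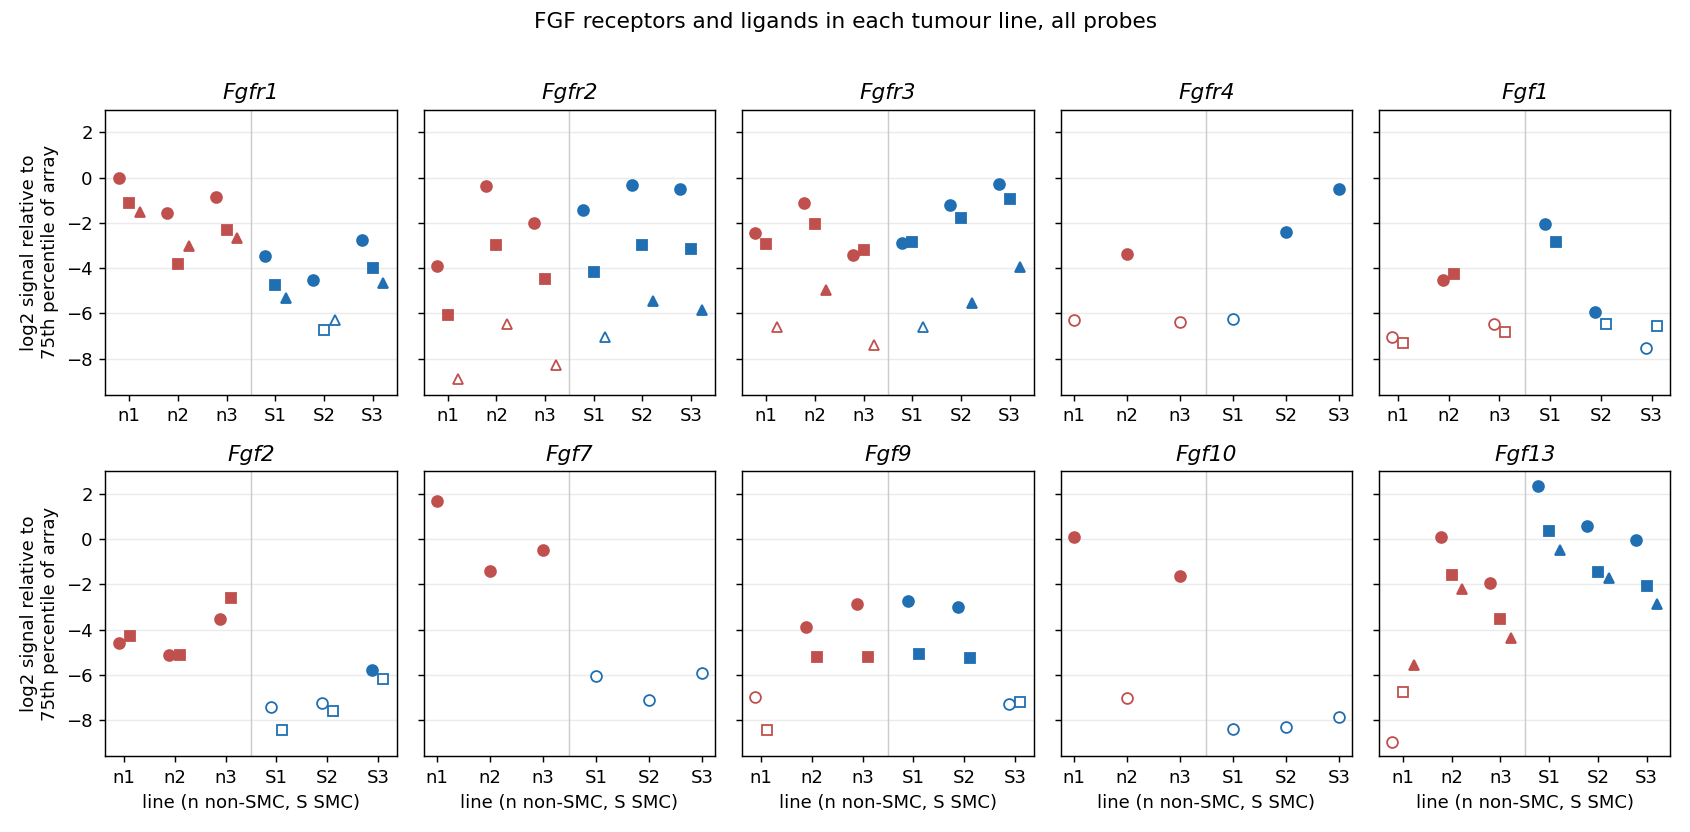
Signal of every probe of the 10 FGF genes in the 3 non-SMC (n1 to n3, red) and 3 SMC (S1 to S3, blue) lines, as log2 relative to the 75th percentile of the array, 1 symbol per probe (circle, square and triangle from the brightest down). Filled symbols were well above background and open symbols were not; Fgf7 was detected in all non-SMC and no SMC lines, and Fgf9 in 2 lines of each group.

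Over all tested probes, the groups of lines did not overlap for 38.6%, and for 16% with SMC lower. Among the receptors, Fgfr1 was the one whose groups of lines did not overlap. Its gene encodes the FGF receptor that is widespread in mesenchymal and neural cells. The brightest of its 3 probes read 0.01, -1.56 and -0.87 in the non-SMC lines of pairs 1 to 3, and -3.47, -4.52 and -2.76 in their SMC partners, and was detected on all 6 arrays. Every SMC line thus lay below every non-SMC line, and within pairs the difference was -3.47, -2.96 and -1.89. The mean difference was -2.78 ± 0.42 (SE, 3 pairs), a 6.86-fold lower signal with a 95% interval from -3.94 to -1.62 on the log2 scale, and it missed the threshold across all probes (limma adjusted p = 0.0597). The other Fgfr1 probes gave the same separation. The second read -1.12, -3.80 and -2.33 in the non-SMC and -4.73, -6.74 and -3.98 in the SMC lines, a difference of -2.73 ± 0.48 (adjusted p = 0.0789). The third read -1.53, -3.02 and -2.66 against -5.34, -6.28 and -4.65, a difference of -3.02 ± 0.46 (adjusted p = 0.0615). Both were below the detection limit in SMC replicate 2, the lowest line by all 3 probes. Non-SMC replicate 1 was the highest by all 3. Leaving aside fits that drop a single line, the brightest Fgfr1 probe passed in 2 of 16 alternative settings. Without the pair in the fit, where 6.91% of all probes passed, its limma adjusted p was 0.0496. With median scaling, where 478 probes were called higher and 1382 lower, it was 0.037. It was 0.0344 without both the pair and non-SMC replicate 2, a fit added after the data were examined. The probe did not pass when only arrays of the shared slide were used (-2.78, adjusted p = 0.102). Nor did it pass with the slide as a block (adjusted p = 0.0625). Over all settings tried its adjusted p reached up to 0.184, and the difference lay between -3.22 and -1.72.

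Fgfr2, which encodes the receptor that epithelial cells use for FGF7 and FGF10, showed no such separation. Its brightest probe was at -3.93, -0.36 and -2.02 in the non-SMC and at -1.44, -0.33 and -0.49 in the SMC lines. The SMC lines were close together and non-SMC replicate 2 reached their level, whereas non-SMC replicate 1 was the lowest of all 6. The difference was 1.35 ± 0.57 (SE), with a 95% interval from -0.21 to 2.90 (adjusted p = 0.221), and by pair it was 2.48, 0.03 and 1.53. A further probe, spotted 10 times on the array, differed by 1.09 ± 0.48 (adjusted p = 0.233). The SD over its 9 or 10 usable spots was 0.04 to 0.22 on each array, and the lines ranged from -6.06 to -2.97. On the shared slide alone the difference of the brightest probe was 0.30 (adjusted p = 0.819). The third Fgfr2 probe was detected in SMC replicates 2 and 3, at -5.47 and -5.85, and in no non-SMC line, and did not meet the filter. As a bound its mean was at least 1.18-fold higher in SMC. By all 3 probes non-SMC replicate 1 was the lowest line, and by the brighter pair of probes both lines of pair 2 were level at the top.

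Fgfr3, a receptor found in epithelial and cartilage cells among others, was detected in every line by 2 probes. The brighter one was at -2.45, -1.14 and -3.43 in the non-SMC and at -2.91, -1.23 and -0.29 in the SMC lines. The groups overlapped, and SMC replicate 3 stood above the rest. The difference of 0.86 ± 0.84 (SE, 95% interval -1.45 to 3.17, adjusted p = 0.547) lay in pair 3, with 3.14, while pairs 1 and 2 gave -0.46 and -0.09. Without pair 3 it was -0.28. The other tested probe, at -2.93, -2.03 and -3.21 against -2.84, -1.79 and -0.93, differed by 0.87 ± 0.56 (95% interval -0.67 to 2.41, adjusted p = 0.374). The remaining, dim Fgfr3 probe was detected in both lines of pair 2 and in SMC replicate 3, where it was highest, at -3.97.

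Fgfr4, which encodes a receptor best known from liver and muscle, was detected in 3 of 6 lines by its only probe. It was at -3.39 in non-SMC replicate 2, at -2.41 in SMC replicate 2 and at -0.48 in SMC replicate 3. The other lines lay between -6.38 and -6.25, not well above background. Both lines of pair 2 and 1 line of pair 3 therefore had the signal, and the probe did not meet the detection filter for a test. Without the filter the difference was 2.31 ± 1.30 (SE, adjusted p = 0.409). Fgfr3 and Fgfr4 had in common that SMC replicate 3 was the highest line.

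Among the ligands, Fgf7 was lower in SMC in all pairs, and this was the largest difference of the tested members. FGF7, or keratinocyte growth factor, is secreted by mesenchymal cells and acts on epithelium. Its single probe was at 1.68, -1.40 and -0.48 in the non-SMC lines and at -6.04, -7.12 and -5.92 in the SMC lines, where it was never well above background. All non-SMC lines were clearly above all SMC lines, and SMC signals are upper limits. With each SMC array at its own value or at its lowest detected signal, whichever was higher, Fgf7 was at least 63.3-fold lower in SMC. The group means were -0.07 ± 1.58 in non-SMC and -6.36 ± 0.66 in SMC (SD, n = 3 each). The fitted difference was -6.29 ± 0.57 (SE; 95% interval -7.86 to -4.73, limma adjusted p = 0.0212), with -7.72, -5.72 and -5.44 in pairs 1 to 3. On the shared slide alone it was -5.64 (limma adjusted p = 0.0305). With pair and slide both in the model the limma adjusted p was 0.0308. That model could not move the difference from the main fit, because of how the pairs lie on the slides. The call ended with normexp background correction (-3.08, adjusted p = 0.0704), without pair 3 (-6.72, adjusted p = 0.085) and, with no pair in the fit, without non-SMC replicate 3 (-6.50, adjusted p = 0.0537). Without pair 3 limma called 0 of all tested probes, so that loss was not particular to Fgf7.

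Fgf10, the ligand that drives branching of the lung bud, was present in 2 non-SMC lines. Its probe was at 0.09 and -1.61 in non-SMC replicates 1 and 3, and at -7.01 in non-SMC replicate 2. The SMC lines were at -8.38, -8.29 and -7.86. All 10 spots of the probe were well above background in non-SMC replicates 1 and 3, 1 of 10 in non-SMC replicate 2 and in SMC replicate 3, and none in SMC replicates 1 and 2. The SD over spots was 0.09 and 0.11 in the lines where it was detected. The probe did not meet the filter, since not every non-SMC array detected it. As a bound, its mean was at least 11-fold lower in SMC, and without the filter the difference was -5.33 ± 1.51 (SE, adjusted p = 0.197). By pair it was -8.47, -1.28 and -6.26, all with SMC at background, and in pair 2 both lines were at background, so that pair shows no direction.

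Fgf2, a ligand stored on heparan sulfate in the matrix, was dim in all lines and fell in SMC. The probe with 10 spots was at -4.60, -5.11 and -3.52 in the non-SMC and at -7.43, -7.25 and -5.80 in the SMC lines. The groups did not overlap, and of the SMC lines only replicate 3 was well above background. Its difference was -2.42 ± 0.31 (SE, 95% interval -3.26 to -1.57, adjusted p = 0.0424), with -2.83, -2.14 and -2.28 in pairs 1 to 3. The other probe, with 1 spot per array, read -4.29, -5.12 and -2.58 in the non-SMC and -8.44, -7.59 and -6.18 in the SMC lines, and was detected in no SMC line. It was at least 4.78-fold lower, with a fitted difference of -3.40 ± 0.44 (adjusted p = 0.0434). By both probes non-SMC replicate 3 and SMC replicate 3 were the highest lines of their groups. Fgf2 lay near the detection limit, and its call depended on how dim signals were treated. With dim signals set to the floor the difference was -1.72 (adjusted p = 0.0923), and with normexp -0.49 (adjusted p = 0.209). On the shared slide alone it was -3.03 (adjusted p = 0.12). With the slide as a block, which could not move the difference, the limma adjusted p was 0.0815. The call of the probe with 10 spots was also lost without the pair in the fit (adjusted p = 0.0674) and without pair 1, 2 or 3 (-2.21, -2.55 and -2.48). Without pair 3, 0 of all tested probes were called.

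**Figure D2:**
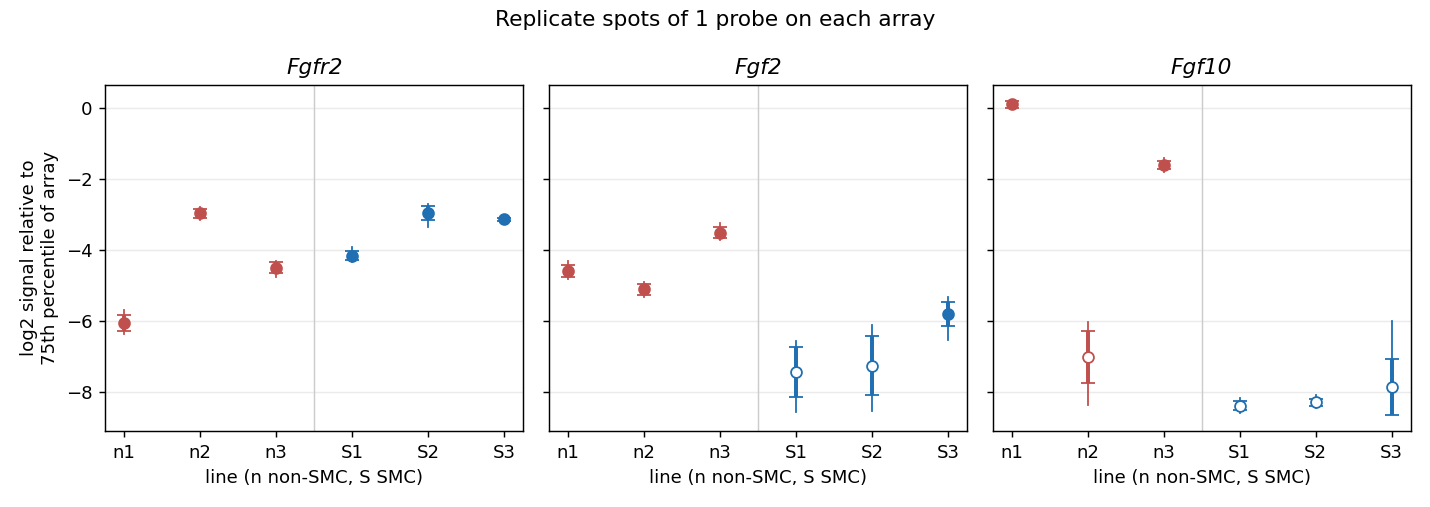
Technical spread of the 3 probes that were spotted 10 times on each array, for Fgfr2, Fgf2 and Fgf10: points are means of the 8 to 10 usable spots in log2 relative to the array's 75th percentile, thick bars are ± SD and thin lines the range. Red is non-SMC, blue is SMC, and open points were not well above background; the SD reached 0.83 for Fgf2 and 0.79 for Fgf10 on arrays without signal and stayed at or below 0.22 for Fgfr2.

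The start regions of Fgf7, Fgf10 and Fgf2 are shown because these ligands were undetected in 2 or more SMC lines and detected in 2 or more non-SMC lines. The sequences are the 250 bases before the annotated start in RefSeq (GRCm38.p6), 5′ to 3′ on the gene's strand, at chr2:126034408-126034657 (Fgf7), chr13:118714449-118714698 (Fgf10) and chr3:37348403-37348652 (Fgf2), all on the plus strand. Capitals mark a GC box, the letters GGGCGG on either strand.
Fgf7: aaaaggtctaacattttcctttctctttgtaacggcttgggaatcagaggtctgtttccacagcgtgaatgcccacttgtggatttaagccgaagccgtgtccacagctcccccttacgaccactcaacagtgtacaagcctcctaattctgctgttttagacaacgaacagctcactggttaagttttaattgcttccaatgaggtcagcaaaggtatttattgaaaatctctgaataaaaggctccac
Fgf10: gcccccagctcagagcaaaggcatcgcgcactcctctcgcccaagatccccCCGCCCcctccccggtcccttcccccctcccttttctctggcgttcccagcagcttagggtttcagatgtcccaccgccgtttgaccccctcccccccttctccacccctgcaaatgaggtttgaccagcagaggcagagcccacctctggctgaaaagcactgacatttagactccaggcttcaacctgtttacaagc
Fgf2: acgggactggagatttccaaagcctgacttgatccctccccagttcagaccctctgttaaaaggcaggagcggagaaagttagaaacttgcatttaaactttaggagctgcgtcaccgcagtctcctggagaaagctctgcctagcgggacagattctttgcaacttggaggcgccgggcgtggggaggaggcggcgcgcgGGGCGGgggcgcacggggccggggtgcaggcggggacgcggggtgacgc
G and C made up 43.6% of the Fgf7 window, 61.2% of that of Fgf10 and 62.4% of that of Fgf2, against a median of 52.4% over 32851 promoter windows. The windows of Fgf10 and Fgf2 each held 1 GC box, which 32.7% of all windows have. None of these windows held TATAAA, the AP-1 letters TGANTCA, the E-box CAGCTG or the TEAD letters GGAATG, each searched on both strands. These occur in 12.4%, 6.75%, 13% and 12.6% of all windows. A window was found for 8 of the 10 genes, and 12 windows in all. Fgf13, whose alternative starts give proteins with different amino ends, had 4 of them. G and C made up 45.6%, 74.8%, 40.4% and 74.4% of these, and the richer pair held 3 and 4 GC boxes while the poorer pair held 0. The Fgfr2 and Fgf9 windows, at 44% and 44.8% G and C, held none of the motifs, and that of Fgfr4, at 64%, held 2 GC boxes. The arrays do not show which start was used.

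Fgf13 had higher group means in SMC by all 3 probes, with wide spread between the non-SMC lines. The brightest probe was at -8.98, 0.08 and -1.94 in the non-SMC and at 2.37, 0.58 and -0.03 in the SMC lines. Non-SMC replicate 1 was at background, while non-SMC replicate 2 lay within the range of the SMC lines. The difference was 4.59 ± 2.39 (SE, 95% interval -1.96 to 11.14, adjusted p = 0.289), and by pair it was 11.35, 0.50 and 1.91, so SMC was higher in 3 of 3 pairs by unequal amounts. Without pair 1 the difference was 1.20 (adjusted p = 0.325). The second probe read -6.77, -1.57 and -3.51 in the non-SMC and 0.38, -1.44 and -2.08 in the SMC lines, a difference of 2.91 ± 1.53 (adjusted p = 0.292). For the third, detected in every line, the difference was 2.34 ± 1.00 (adjusted p = 0.227). By all 3 probes SMC replicate 1 was the highest line and non-SMC replicate 1 the lowest. The neuroendocrine marker Chga showed the same order of non-SMC lines: it was at -3.09 in replicate 1, at 4.38 in replicate 2 and at -0.22 in replicate 3. In the SMC lines Chga lay between 5.56 and 7.11. Of the 12 neuroendocrine markers, Ncam1, Uchl1 and Syp did not share this order of non-SMC lines. Ncam1 was highest in replicate 1 (4.75, 4.36 and 3.91 in replicates 1 to 3). Uchl1 and Syp were lowest in replicate 3, at -0.57 and -5.33.

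Fgf9, made by lung epithelium, was detected in 2 lines of each group. Its brighter probe was at -3.88 and -2.85 in non-SMC replicates 2 and 3 and at -2.72 and -2.98 in SMC replicates 1 and 2. It was at -6.98 in non-SMC replicate 1 and at -7.28 in SMC replicate 3, not well above background. The lines with and without Fgf9 thus did not follow the groups, and the second probe was detected in the same 4 lines, at -5.27 to -5.06. These 4 lines were also those with high signals of the epithelial keratin gene Krt8, at 6.82 and 7.0 in non-SMC replicates 2 and 3 and 6.63 and 7.18 in SMC replicates 1 and 2, against -0.50 in non-SMC replicate 1 and 0.56 in SMC replicate 3. Esrp1, which encodes a splicing factor for the epithelial form of Fgfr2, was at 0.14, -0.62, 1.01 and 1.44 in the same lines and at -7.68 and -5.56 in the others. Krt8 was picked with its values in view. Of 7 tested lung epithelial markers, Epcam, Krt8 and Krt18 were higher in each of these 4 lines than in the other 2 lines, as was Foxj1 by a small margin (-3.29 in SMC replicate 2 and -3.63 in SMC replicate 3), and Sftpc, Scgb1a1 and Krt5 were not. Krt5, for example, was at 1.85 in non-SMC replicate 3 and between -6.25 and -4.66 elsewhere. The 4 arrays are those of the shared slide, so slide and signal cannot be told apart for Fgf9. Without the filter its difference between groups was 0.24 ± 1.79 (SE, adjusted p = 0.984).

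Fgf1, a ligand that binds all FGF receptors, was detected in 3 lines by its brighter probe. It was at -2.04 in SMC replicate 1, at -4.52 in non-SMC replicate 2 and at -5.93 in SMC replicate 2. The remaining lines lay between -7.55 and -6.48. SMC replicate 1 stood out in both Fgf1 probes, at -2.87 in the dimmer one. The groups overlapped, and the difference without the filter was 0.85 ± 1.49 (SE, adjusted p = 0.826).

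**Figure D3:**
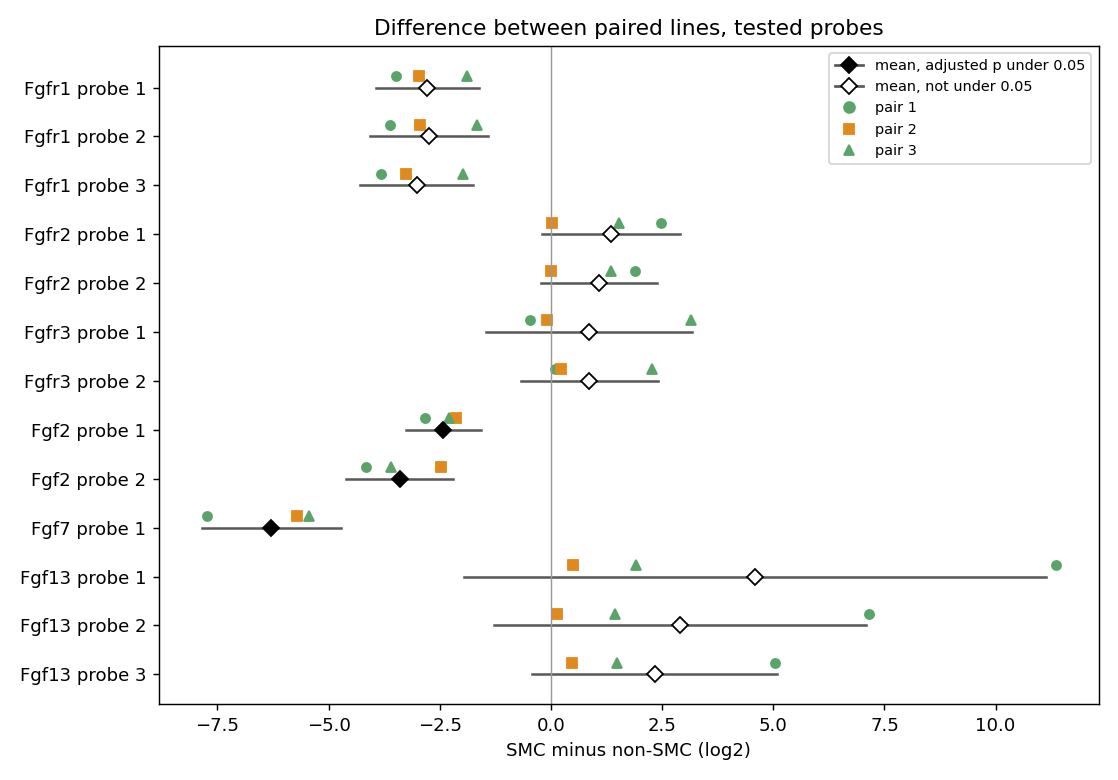
Differences SMC minus non-SMC (log2) for the 13 tested probes of 6 FGF genes, probes of a gene numbered from the brightest down: diamonds are means over 3 pairs with 95% limma intervals, filled where the adjusted p was under 0.05, and coloured symbols are the single pairs. The 3 filled probes belong to Fgf2 and Fgf7; the Fgfr1 intervals also lie below 0, from -4.29 to -1.41 over its probes.

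Set against each other, receptors were detected in nearly equal numbers in the groups, and fewer ligands were detected in SMC lines. Over all probes, 64.1% to 68.3% were detected in the non-SMC and 65.1% to 68.5% in the SMC lines. Receptors were present in both groups: 3, 4 and 3 of 4 genes in the non-SMC lines of pairs 1 to 3, and 3, 4 and 4 in the SMC lines. Of the 6 ligands, 4, 5 and 5 were detected in the non-SMC and 3, 3 and 2 in the SMC lines. The SMC lines lacked Fgf7 and Fgf10 and kept Fgf13, and SMC replicate 3 had only Fgf2 and Fgf13. Of 3 tested receptor genes, by their brightest probe, limma called 0 in either direction. At an unadjusted p below 0.05 there was 1, Fgfr1, where 27.2% of all probes lay below that value. Over all named genes, each by its brightest probe, 3.96% were called in either direction and 3.78% lower. Of 3 tested ligand genes 2 were lower. Over 3 genes each, receptors had a median difference of 0.86, the value of Fgfr3, and ligands of -2.42, that of Fgf2. The median over all named genes was 0.08. By pair, the receptor median was -0.46, -0.09 and 1.53, so its sign rested on pair 3, and Fgfr1 itself was at -2.78. The ligand median was -2.83, -2.14 and -2.28. Fgf2 and Fgf7 entered the test through the non-SMC arrays only, so these counts describe the members and support nothing further. The lines with Fgf7 signal are also those with high mesenchymal markers, and in such cultures fewer cells of a type and less RNA per cell cannot be told apart; the part of this in the ligand differences was not tested. Of 10 tested fibroblast and mesenchymal markers 7 were lower in SMC, 0 higher and 3 not called. Of the 7, all but Col1a2 were at background on at least 1 SMC array and met the filter through the non-SMC lines alone. Those not called were Pdgfra with -2.87, Dcn with -4.51, where pair 1 gave 5.24, and Thy1 with 0.91.

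Over the 6 arrays, genes with a pattern close to that of Fgfr1 were Echdc1, Qk, Rnf217, Ext2 and Spcs3, with Pearson correlations from 0.995 down to 0.989. For Fgf7 they were Lgals8, Nrp1, Aup1, Slc39a13 and Prrx1, from 0.999 to 0.996. Fgfr1 and Fgf7 correlated at 0.97 with each other, and Fgf7 at -0.74 with Fgfr2 and at -0.80 with Fgf13. These are descriptions over 6 arrays that share the group difference and carry no p. Ext2 takes part in heparan sulfate synthesis and Nrp1 encodes a co-receptor of several growth factors.

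The wider FGF pathway was read from 7 lists, each gene by its brightest tested probe, where 3.78% of all named genes were lower and 0.18% higher. Of 14 tested feedback inhibitors and ETS targets, 3 were lower, 0 higher and 11 not called. All 14 mean differences were negative, with a median of -2.16, while 53.9% of all named genes had a positive one. Etv5, detected in 0 SMC lines, and Spred3, detected in 2 of 3, met the filter through the non-SMC lines alone, which favoured a negative sign. The other tested genes of this list were detected in all lines. Within single pairs some were higher in SMC: Spry1 (0.44), Dusp4 (0.33) and Dusp6 (0.001) in pair 1, Il17rd (0.08) in pair 2 and Dusp7 (0.86) in pair 3. Etv4, an ETS factor induced by FGF signalling, was at -0.83, 0.09 and 0.42 in the non-SMC and at -4.71, -5.58 and -3.53 in the SMC lines, a difference of -4.50 ± 0.49 (SE, adjusted p = 0.0304). Egr1, an immediate early gene of the MAP kinase cascade, was at 3.13, 4.64 and 5.36 against -0.44, 0.01 and 0.20, a difference of -4.45 ± 0.42 (adjusted p = 0.0234). Spred1, an inhibitor of RAS signalling, differed by -2.90 ± 0.37 (adjusted p = 0.0436). For Etv4 and Egr1 the SMC lines were all below the non-SMC lines, and both genes also respond to receptors other than those for FGF. Etv4 and Egr1 passed on the shared slide alone (-5.40 and -5.21), and Spred1 did not (-3.03, adjusted p = 0.161). With the slide as a block Egr1 alone kept its call, and the adjusted p was 0.0717 for Etv4 and 0.0794 for Spred1. None of the 3 passed without pair 1 or without pair 3 (adjusted p from 0.0556 to 0.212), nor did Egr1 and Spred1 without pair 2. Of all tested probes, 0 were called without pair 3. Dusp6, the phosphatase that acts on ERK, was at 0.88, 3.53 and 2.91 in the non-SMC and 0.89, 0.12 and -0.87 in the SMC lines, so pair 1 showed no difference (adjusted p = 0.186).

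Genes for heparan sulfate and the co-receptors had calls in the lower direction only, where 3.78% of all named genes were lower. In heparan sulfate synthesis and editing, 2 of 13 genes were lower and 0 higher, with a median of -0.86. Ext1, a polymerase subunit of the chain, was at 2.96, 1.49 and 2.76 in the non-SMC and at -1.08, -1.67 and -0.57 in the SMC lines, a difference of -3.51 ± 0.33 (SE, adjusted p = 0.0227). Sulf1, which removes sulfate groups from the chain, had a difference of -7.72 ± 1.04 (adjusted p = 0.0482), with signal above background in 2 of 3 SMC lines. It met the filter through the non-SMC lines alone, as did Hpse and Hs3st1 of this list. With dim signals at the floor Sulf1 differed by -6.99. Ext1 did not pass on the shared slide alone (-3.50, adjusted p = 0.078), nor did Sulf1 (-8.45, adjusted p = 0.0774), and both calls ended without pair 1 or 3. Leaving out pair 3 ended the call of every gene, with 0 of all tested probes called. With the slide as a block Sulf1 was at an adjusted p of 0.085. Among 14 co-receptors and binding proteins, 1 was lower, 0 were higher and 13 were not called, with a median of -1.40. Sdc1, a syndecan whose heparan sulfate chains bind FGFs, was at 3.49, 3.73 and 4.98 against 1.15, 1.48 and 1.68, a difference of -2.63 ± 0.36 (adjusted p = 0.0489). It lost the call on the shared slide alone (-3.04, adjusted p = 0.0912), with the slide as a block (adjusted p = 0.0779) and without any 1 of the 3 pairs.

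**Figure D4:**
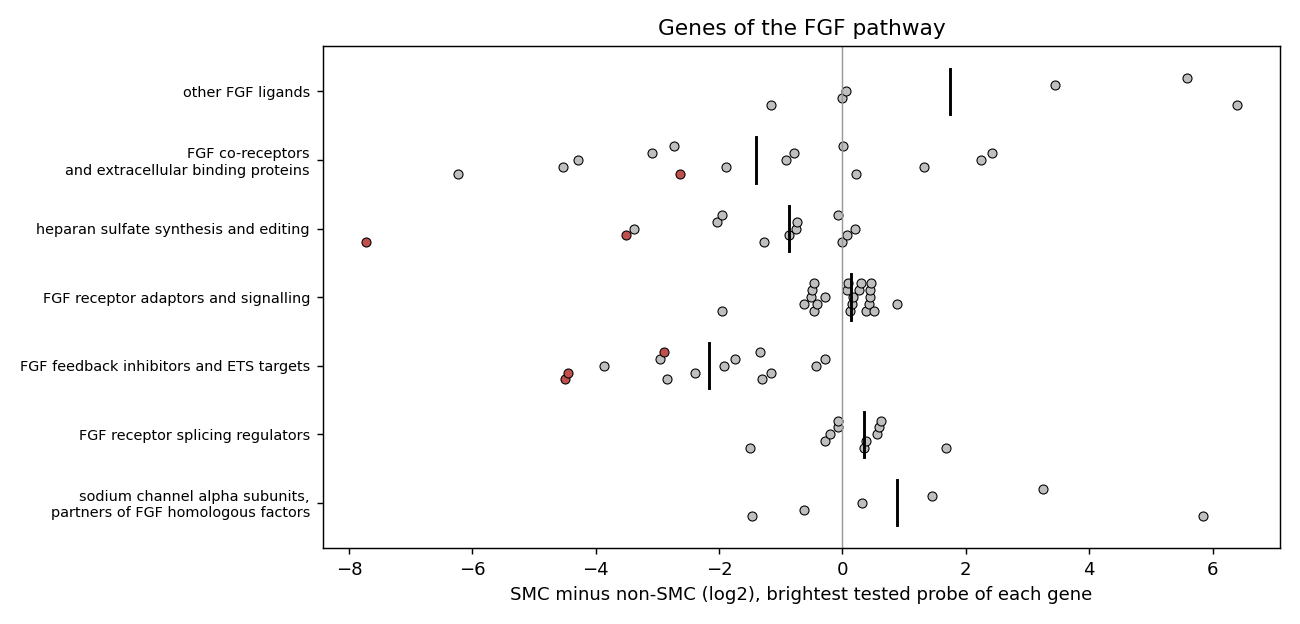
Differences SMC minus non-SMC (log2) of the tested genes of 7 FGF pathway lists, each by its brightest probe: red points passed the limma test, grey points did not, and black bars are list medians. All 14 feedback inhibitors and ETS targets lie below 0, and the signalling adaptors have their median at 0.13. Of the 14, Etv5 and Spred3 met the detection filter through the non-SMC lines alone.

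The remaining lists had no call in either direction in the paired fit. The 22 adaptors and signalling genes, such as Frs2 and Grb2, were detected in all 6 lines, with a median of 0.13. The largest differences among them were Shc1, an adaptor, with -1.95 ± 0.38 (SE, adjusted p = 0.0905), and Gab1, a docking protein, with 0.89 ± 0.39 (adjusted p = 0.236). Among 11 splicing regulators, with a median of 0.35, these were Esrp1 with 1.68 ± 2.76 (adjusted p = 0.723) and Mbnl1 with -1.49 ± 0.44 (adjusted p = 0.142).

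Of 6 tested further ligands, with a median of 1.75, the largest differences were in FGF homologous factors related to Fgf13. Fgf12 was at -8.66, 0.11 and -5.00 in the non-SMC and at 1.70, 1.85 and 2.09 in the SMC lines, a difference of 6.39 ± 1.77 (SE, adjusted p = 0.133). Fgf14 differed by 5.59 ± 1.83 (adjusted p = 0.161). Fgf12 was detected in 2 and Fgf14 in 1 of 3 non-SMC lines, so both met the filter through the SMC lines alone, and with dim signals at the floor the differences were 5.75 and 4.40. Without pair 2 the fitted values were 8.72 (limma adjusted p = 0.0374) for Fgf12 and 8.02 (limma adjusted p = 0.0429) for Fgf14. For Fgf12 that was in part against a background reading, in non-SMC replicate 1. For Fgf14 it was wholly against background, with non-SMC replicates 1 and 3 at -8.62 and -7.72. As for Fgf13, non-SMC replicate 2 was the non-SMC line nearest to the SMC lines. Fgf3, Fgf6, Fgf15, Fgf16, Fgf20 and Fgf23 were detected on no array. Of 6 sodium channel subunits, to which these factors bind, with a median of 0.88, Scn8a differed by 5.84 ± 1.84 (adjusted p = 0.153). It was detected in 2 of 3 non-SMC lines and met the filter through the SMC lines alone, and with dim signals at the floor it differed by 5.66. Without pair 2 the fitted value was 8.31 (adjusted p = 0.0363), in part against a background reading of -7.26 in non-SMC replicate 1. The neuroendocrine markers, also nearest to SMC in non-SMC replicate 2, had a median difference of 1.13 in pair 2 against 6.96 and 6.00 in pairs 1 and 3. The part of this in the differences of Fgf12, Fgf13, Fgf14 and Scn8a was not tested.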

How the data were processed

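RNA of 6 primary mouse lung tumour lines was hybridised to 1-colour (Cy3) Agilent arrays of design 014868. Per the file headers, spots were quantified with Agilent's Feature Extraction 10.7.3.1 (the submitters' processing notes give 10.7). The deposited processed intensity is background-subtracted and not normalized between arrays. The median spot and local background intensities are deposited without normalization. The deposited log2 values of the series table have equal quantiles in all columns (median 5.06) and correlated at 0.996 or more with the processed signal of their own array.

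Control spots (1639) and outlier-flagged spots were left out, spots of a probe were averaged as log2, and each array's 75th percentile (485 to 698 intensity units) was subtracted. No probe was saturated, and 50 probes without a usable spot on some array were dropped. The text files have no gene name column, so a probe got its symbol from its accession, without version, through RefSeq (GRCm38.p6): 27442 of 41124 probes matched. A probe was tested if detected (more than a share of 0.5 of its spots well above background) on all arrays of a group. Tests were two-sided, with limma 3.58.1 in R 4.3.3, pair and group in the model and Benjamini-Hochberg adjustment over all tested probes, with 2 residual and 2.13 prior degrees of freedom. The fit was tested on simulated data. The number of arrays limits the precision. For a bound ("at least"), each array of the dim group contributed either the probe's own value or the lowest value of any detected probe, whichever was higher, and the mean of these was set against the mean of the bright group.

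The pairs come from the labels. After subtraction of the group means, the lines of a pair correlated at -0.01, 0.13 and 0.00 in pairs 1 to 3, and lines of different pairs between -0.14 and 0.13. The 10 genes, the lists and the tests were chosen with earlier results of these data known. Named besides the 10 genes were, per list, up to 4 called genes with the largest difference, or the 2 largest if none was called, Rb1 and Trp53, and the 5 genes most correlated with the receptor and the ligand of largest difference. Dusp6, Krt8, Chga, Col1a2, Pdgfra, Dcn, Thy1, the endothelial genes and further list members were picked with their values in view. Some items are not reported here. Alternatives are given in the closing section; those that leave out a single line were added after the data were examined.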

Additional observations from a re-analysis of the deposited data

How the results depend on the processing

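Over the alternatives, the 13 member probes kept the sign of their difference except the brightest Fgfr3 probe, which lay between -0.28 and 1.52 when 1 pair was left out (-0.28 without pair 3) and reached 1.58 without SMC replicate 1 and the pair. Among the named pathway genes Esrp1 turned, with -1.82 without pair 1, 4.99 without pair 3, and -0.80 without non-SMC replicate 1. Leaving aside fits without a single line, Fgf7 was called in 13 of 15 settings that tested it, and the Fgf2 probes in 3 of 15 and 4 of 14. With the replicate block removed, 463 probes were higher and 1380 lower, against 54 and 855; 1 receptor and 1 ligand were lower, as were 2 co-receptors and 1 adaptor. Median scaling gave 478 higher and 1382 lower, 6 member probes lower, 1 receptor and 3 co-receptors. Quantile normalization gave 88 higher, 1 member probe, 1 ligand and 2 co-receptors lower, and the deposited values 1, 1 and 2. Normexp gave 105 higher, and 0 member probes, 0 ligands and 3 co-receptors lower. Without a filter 11 were higher and 563 lower, with 1 member probe, 1 ligand, 0 co-receptors, 1 heparan sulfate gene and 1 feedback gene lower. With detection on all arrays 7 were higher and 217 lower, and 0 member probes, 0 co-receptors and 1 heparan sulfate gene were lower; Fgf7, Fgf2 and Fgf13's brightest probes could not be tested there. With 1 probe a gene 31 were higher, and with the mean of a gene's probes 33, with 0 co-receptors and 1 heparan sulfate gene lower in both. With dim signals at the floor 1 member probe, 1 ligand and 2 co-receptors were lower, and with flagged spots kept 1 ligand. The slide as a block gave 20 higher, and 1 member probe, 1 ligand, 1 heparan sulfate and 1 feedback gene lower. The shared slide alone gave 35 higher, and 1 member probe, 1 ligand and 1 heparan sulfate gene lower. The cause of these changes was not tested, apart from settings that test fewer probes.

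Leaving out 1 pair in turn gave 0 to 783 probes higher and 0 to 743 lower; without pair 3 limma called 0, with 1279 higher and 2359 lower before adjustment. Member probes lower ranged from 0 to 2, ligands from 0 to 1, co-receptors from 0 to 2, heparan sulfate genes from 0 to 2 and feedback genes from 0 to 1, while 0 to 2 further ligands, 0 to 1 co-receptors and 0 to 2 sodium channel subunits were higher. Leaving out 1 line, with no pair in the fit, non-SMC replicate 2 moved most: 2125 probes were higher and 1636 lower without it, 1 receptor, 1 ligand, 2 co-receptors and 1 adaptor were lower, and 3 further ligands, 1 co-receptor and 2 sodium channel subunits were higher. Without non-SMC replicate 1, 147 probes were higher and 1 member probe, 1 ligand and 2 co-receptors lower. Without non-SMC replicate 3, 30 were higher and 0 member probes, 0 ligands, 0 heparan sulfate genes and 1 feedback gene lower. Without SMC replicate 1, 1 member probe, 1 ligand, 0 co-receptors, 1 heparan sulfate gene, 0 feedback genes and 1 sodium channel subunit were lower. Without SMC replicate 2, 131 were higher and 1 member probe, 1 ligand, 2 co-receptors, 1 heparan sulfate gene and 1 adaptor lower, and without SMC replicate 3, 1 ligand. For Fgf2 and Fgf7 in SMC, and for Fgf10, Fgf9, Fgf1 and Fgfr4 in the lines without signal, the background limits what can be read.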
